A study of Brassica juncea with 21 samples.

Results

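Genes whose product names point to the plant surface were examined in the floral nectaries and leaves of Brassica juncea, a polyploid mustard. They were chosen by name alone: a gene was taken when its description held the words GDSL esterase/lipase, lipid-transfer protein, 3-ketoacyl-CoA synthase, fatty acyl-CoA reductase, WSD1, ECERIFERUM or glycerol-3-phosphate acyltransferase. The rule gave 57 of the 13904 genes in the table, and all 57 passed the filter on low values. They comprised 24 GDSL esterase/lipases, 13 lipid-transfer proteins, 7 3-ketoacyl-CoA synthases, 1 fatty acyl-CoA reductase, 2 WSD1-like acyltransferases, 3 ECERIFERUM proteins and 7 genes with glycerol-3-phosphate acyltransferase in the name.

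Tissue came from untreated plants about 40 days old, grown under 16 h of light and 8 h of dark at 21 °C. Each flower carries lateral and median nectaries. Both nectary types were dissected at a pre-secretory stage (24 h before anthesis), a secretory stage (full anthesis, 4 to 8 h after dawn) and a post-secretory stage (a further 12 h on), and leaf was taken at the time of the secretory nectaries. The labels list 3 libraries for each of the 7 groups, and each nectary library pooled about 100 nectaries. Leaf was the sole other organ, so a difference from leaf does not set nectary apart from flower. The hour of day is stated for the secretory stage alone. A sample taken 12 h later stands at another point of the daily cycle, at or past the end of the light if dawn is its start. Stage and time of day cannot be told apart there.

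The cuticle is a lipid layer that the epidermis lays over the aerial surface. Its polyester, cutin, is built from oxidised fatty acids joined to glycerol, and its waxes are very-long-chain fatty acids made by the elongase complex and turned into alkanes, alcohols and esters. Transporters of the ABCG family and small lipid-transfer proteins are thought to carry these lipids outward, and GDSL enzymes can join or cut cutin bonds. In nectaries of the mustard family nectar leaves through modified stomata in a cuticle-covered surface.

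Each group had a single deposited value per gene, a normalized expression value, so there was no replicate spread and no test, and higher and lower refer to these values alone. Differences are on the log2 scale of the value plus 1, folds are ratios of the value plus 1, and a gene is called higher or lower from 2-fold on. Column totals ran from 7081592 to 11197495 and column medians from 168 to 192. The read depth of each library is unknown. The lateral post-secretory column lacks the header mark of the other 6 and was taken to hold the same kind of value. The values are not stated to be divided by transcript length, so levels are compared between groups and not between genes. In bulk tissue, fewer epidermal cells and less RNA per cell cannot be told apart. The nectary genes CRC and SWEET9 were listed at 8025 or more and at 1367 or more in every nectary group and at 92 and 19 in leaf. Of the other nectary genes measured, CWINV4, MYB57 and both MYB21 genes were also above leaf in every nectary group. The lowest of these values was MYB57 at 34 in lateral pre-secretory nectaries, against 4 in leaf. PIN6 was the exception, at 35 in leaf, 32, 1450 and 15 through the lateral stages and 2138 or more in median nectaries.

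Not every gene picked by name is a cuticle gene. The 7 glycerol-3-phosphate acyltransferase names cover enzymes of membrane and storage lipid synthesis, and none of their Arabidopsis matches is a cutin acyltransferase of the pathway list used below. The GDSL group includes ESM1, which is known for its part in glucosinolate breakdown. The lipid-transfer group includes a match to sterol carrier protein 2, which is not a secreted lipid-transfer protein. An Arabidopsis match was given for 41 of the 57 genes and none for 16.

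More of the surface lipid genes were lower than higher in secretory nectaries, both against leaf and against the stage before. Both comparisons use the same secretory values, so they are not independent of each other. Against leaf, with the log2 values of the 2 nectary types averaged, 34 of 57 were lower in secretory nectaries and 11 were higher. Of all genes, 25.9% were lower and 26.3% higher. Their median log2 difference was −1.59, beside 0.10 over all genes. At the onset of secretion, from the pre-secretory to the secretory stage, 26 were lower and 11 higher in lateral nectaries, beside 23.9% and 21.3% of all genes. In median nectaries 27 were lower and 10 higher, beside 18.7% and 17.58%. The medians of the 57 at the 2 onsets were −0.83 and −0.90, beside −0.05 and 0.02 over all genes. After scaling columns to 1 common total, the lateral onset had 33 lower and 7 higher, beside 4997 lower and 1946 higher of 13890 genes. The median of all genes there was −0.54. Before secretion the comparison with leaf was more even, with 16 of 57 higher and 23 lower, beside 21.8% and 19.5% of all genes. It shares the leaf value with the first comparison.

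The same genes were lower at both onsets in 22 cases, 38.6% of the 57, beside 14.8% of all genes. Another 9 were higher at both onsets (15.8%, beside 13.4%), and 0 went past 2-fold in opposite directions (beside 0.533%). The 22 comprised 10 GDSL genes, 7 lipid-transfer proteins, 4 3-ketoacyl-CoA synthases and ECERIFERUM 1. The 9 comprised 5 GDSL genes, both WSD1-like genes, the fatty acyl-CoA reductase and 1 lipid-transfer protein.

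**Figure D1:**
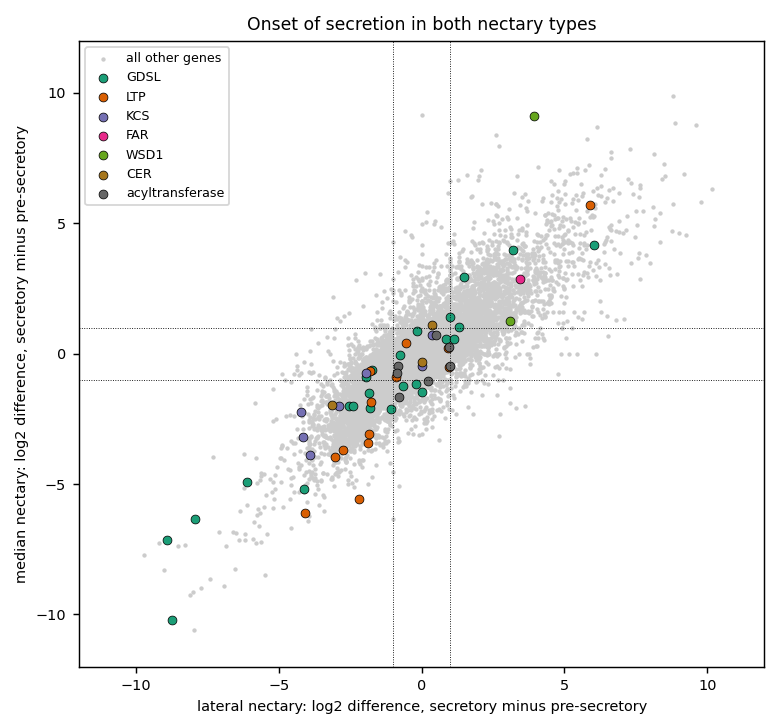
Log2 difference between the secretory and the pre-secretory stage in lateral nectaries (x axis) and median nectaries (y axis). Each coloured point is 1 of the 57 surface lipid genes by name group, grey points are the other genes kept by the filter, and dotted lines mark 2-fold. The lower left corner past both lines holds 22 of the 57, the upper right corner 9, and the other 2 corners 0.

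At the end of secretion, from the secretory to the post-secretory stage, 20 of 57 were higher and 10 lower in lateral nectaries, beside 24.2% and 18.3% of all genes. The quantile-normalized columns gave 18 and 14, beside 2893 higher and 2685 lower of 13885 genes. Columns scaled to the same total gave 30 and 7, beside 5612 higher and 1320 lower of 13890 genes. In median nectaries 25 were higher and 14 lower, beside 17.7% and 15.0%. Both steps use the secretory value, so opposite differences at onset and end are not independent of each other. A dip at secretion, lower at onset and higher at the end in both nectary types, was shown by 11 genes (19.3%, beside 5.57% of all genes). Taken type by type, 11 genes dipped in lateral nectaries (beside 14.8% of all genes) and 16, or 28.1%, in median ones (beside 7.38%). In 1 of these, the At5g45670-like GDSL gene, the second step was from 1 to 3 and from 0 to 2. A lasting drop, lower at onset and still lower after secretion than before it, was also shown by 11 genes in both types (19.3%, beside 5.02%). It was seen in 17 genes, or 29.8%, of lateral nectaries (beside 7.69%) and in 15, or 26.3%, of median ones (beside 11.8%). Both parts of a lasting drop use the pre-secretory value, so they are not independent of each other either. A dip and a lasting drop can overlap in 1 gene. A peak at secretion in both types was shown by 4 (7.02%, beside 4.12%), and 13 were higher after secretion than before it in both types (22.8%, beside 13.3%). In 1 of the 4 peaks, that of the At2g30310-like GDSL gene, the lateral values were low, at 5, 11 and 0 from stage to stage. After secretion against before it, 15 were higher and 22 lower in lateral nectaries, beside 17.0% and 14.5% of all genes, and 14 were higher and 21 lower in median ones, beside 19.8% and 22.0%. Opposite directions in the 2 types at the end of secretion were shown by 2 genes (3.51%, beside 1.08%).

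**Figure D2:**
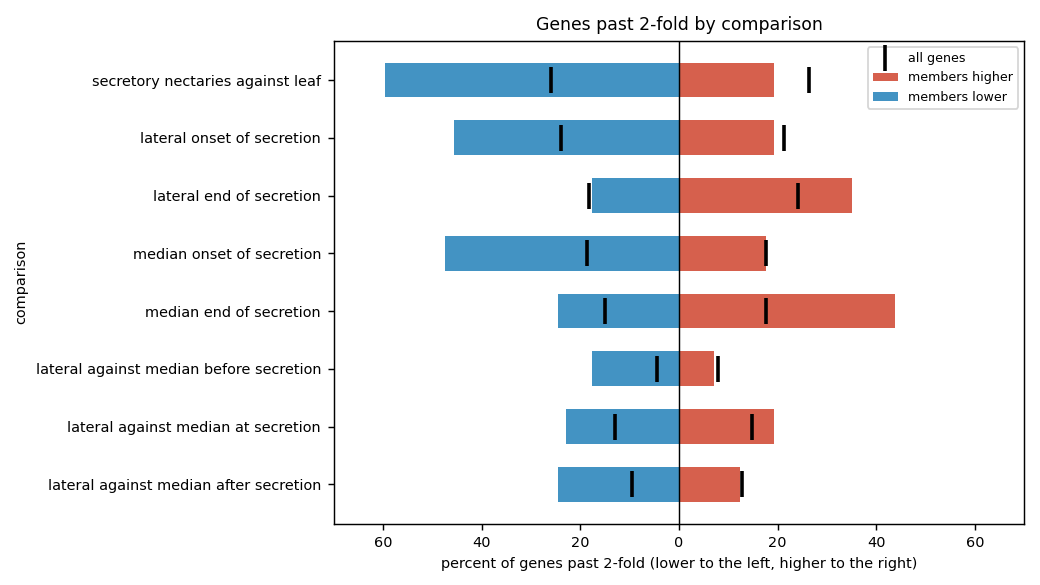
Percent of genes past 2-fold in each comparison, lower to the left and higher to the right of 0. Bars are the 57 surface lipid genes and black marks are all 13896 genes kept. The left bars reach past the marks at both onsets (26 and 27 genes) and against leaf (34 genes), and the left bar at the lateral end of secretion, with 10 genes, does not.

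The 3-ketoacyl-CoA synthases catalyse the first step of each elongation round. On the mean of both nectary types they were lower than leaf at secretion in 7 of 7 cases, beside 25.9% of all genes. In median nectaries alone, the genes named 3-ketoacyl-CoA synthase 5 and 6 were within 2-fold of leaf. They were listed there at 2233 and 662 at secretion, against 3579 and 1041 in leaf. In the order leaf, then lateral pre-secretory, secretory and post-secretory, then median pre-secretory, secretory and post-secretory, the 3-ketoacyl-CoA synthase 10-like gene (LOC103864722) was listed at 1170, 1016, 66, 530, 1393, 94 and 632. It matches Arabidopsis KCS10, known as FIDDLEHEAD, whose loss lets young organs fuse. Both secretory values stood far under the other 5, and the gene was 15.2-fold lower at the lateral onset and 14.7-fold lower at the median onset. After secretion it was 7.93-fold and 6.66-fold higher again.

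A pair of further synthases dipped in the same way. 3-ketoacyl-CoA synthase 17 (LOC103844277) was listed, in that order of groups, at 125, 73, 3, 24, 70, 14 and 63. 3-ketoacyl-CoA synthase 19 (LOC103827956) was listed at 58, 58, 7, 72, 95, 23 and 107. In each, the secretory values were the lowest of their nectary type, with lateral lower than median.

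The genes named for the main wax synthases behaved differently from these. The one named 3-ketoacyl-CoA synthase 5 (LOC103840573) was listed at 3579, 5003, 1283, 335, 3729, 2233 and 771. Its values stepped down from stage to stage in both nectary types, to 14.9-fold lower after than before secretion in lateral nectaries and 4.83-fold lower in median ones. The one named 3-ketoacyl-CoA synthase 6 (LOC103830968) was listed at 1041, 280, 363, 168, 405, 662 and 201, and stayed within 2-fold at both onsets. Both match the Arabidopsis locus of KCS6, which extends the chains of most stem and leaf wax, although the first carries the name of its close relative KCS5. How reads were divided between such close copies is not stated.

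The remaining synthases had their highest values in leaf. 3-ketoacyl-CoA synthase 9 (LOC103846046) was listed at 238 in leaf and between 4 and 29 in nectaries, 37.8-fold lower in secretory nectaries than in leaf. 3-ketoacyl-CoA synthase 3 (LOC103836419) was listed at 144 in leaf, at 52 and 63 in lateral and median nectaries before secretion, and between 2 and 8 in the 4 later groups. It was 17.7-fold and 9.14-fold lower at the lateral and median onsets, a larger step than its 2.49-fold difference between leaf and pre-secretory nectaries. ECERIFERUM 26-like (LOC103854637) was likewise highest in leaf, at 155 in leaf and between 2 and 6 in nectaries. In Arabidopsis CER26 helps the elongase make the longest chains of leaf wax.

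The alkane-forming pair of wax synthesis did not move together. ECERIFERUM 1 (LOC103843834), the alkane-forming enzyme, was listed at 3084 in leaf, at 3639, 415 and 246 through the lateral stages and at 6043, 1536 and 254 through the median ones. It was highest before secretion and lowest after it in both nectary types, 14.7-fold lower in lateral and 23.7-fold lower in median nectaries between these stages. ECERIFERUM 3 (LOC103851685), its partner in Arabidopsis, was listed at 1055 in leaf, at 442, 563 and 836 through the lateral stages and at 380, 809 and 925 through the median ones. Its order was the opposite, lowest before secretion and highest after it, with 2.13-fold between pre-secretory and secretory median nectaries and 1.27-fold in lateral ones. In columns scaled to the same total its log2 difference was 0.67 at the median onset and −0.14 at the lateral one, so its direction at the lateral onset depends on the scaling.

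**Figure D3:**
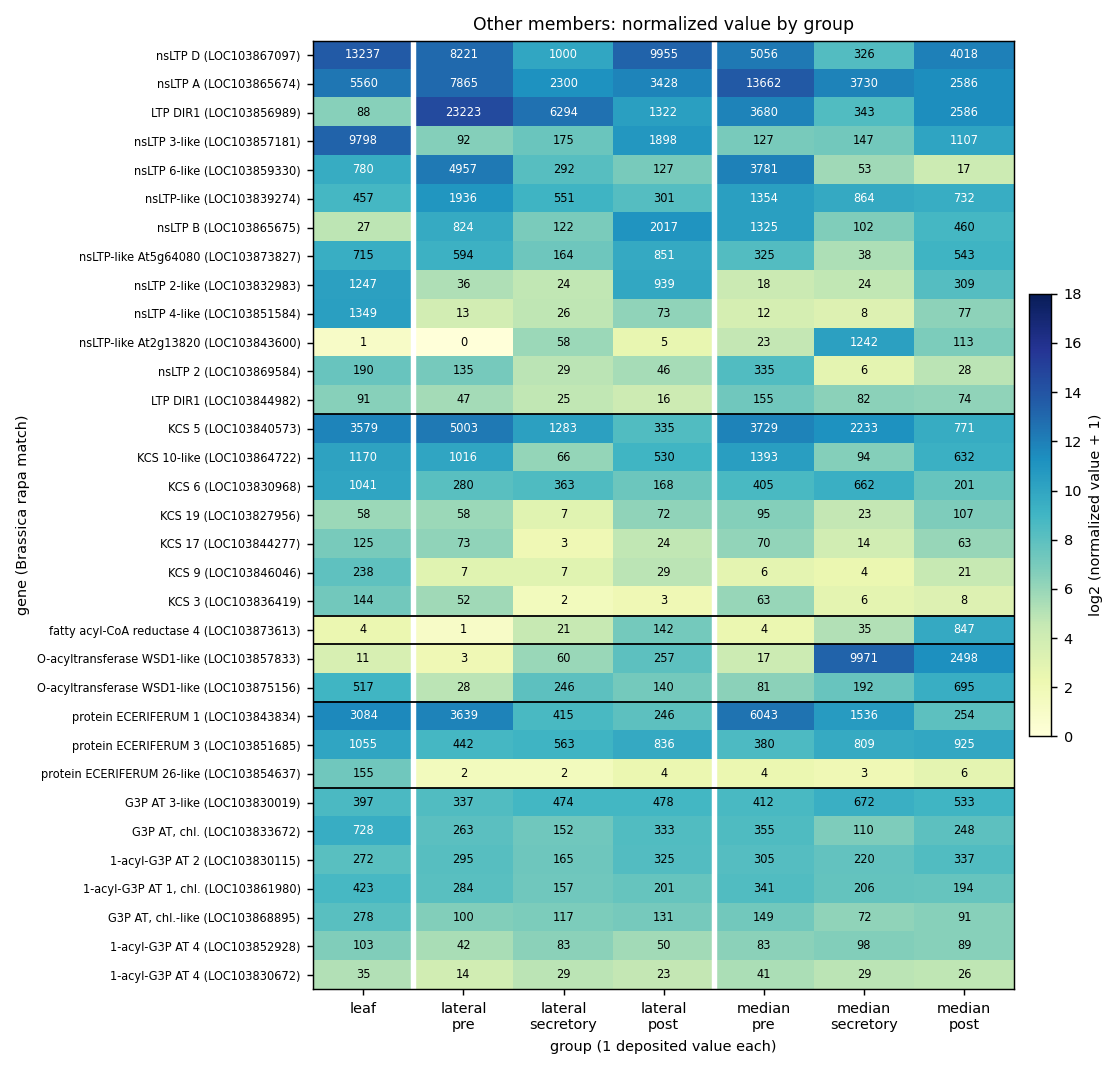
Normalized value (number in each cell) and its log2 after adding 1 (colour) for the 33 surface lipid genes that are not GDSL esterase/lipases, by group. Black lines separate the name groups and white lines leaf, lateral and median nectaries. KCS 10-like drops to 66 and 94 in the secretory columns, and the WSD1-like gene LOC103857833 reaches 9971 in 1 column.

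Of the 57 Arabidopsis loci of a wax, cutin and export list written from general knowledge, 19 were measured, in 22 genes. Of these genes, 17 were not chosen by the name rule. A locus counts as measured when a gene gave it as its Arabidopsis match. Genes without a match could not be counted, and 16 of the 57 surface lipid genes had none. A locus not measured in this sense may thus still have a gene among the values. Among the 17, 9 were lower and 5 higher at the lateral onset, beside 23.9% and 21.3% of all genes, and 9 lower and 2 higher at the median onset, beside 18.7% and 17.58%. Columns scaled to the same total left 1 and 0 higher, beside 1946 and 1706 of 13890 genes. The higher calls of this list thus depend on the scaling. Their median log2 differences were −1.13 and −1.25. Against leaf 7 were lower and 4 higher in secretory nectaries, beside 25.9% and 26.3%. After secretion, compared with before it, 8 were lower and 1 higher in lateral nectaries, beside 14.5% and 17.0%, and 11 were lower and 1 higher in median ones, beside 22.0% and 19.8%.

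Few loci of cutin synthesis were matched by a gene, 2 of 5 of the cutin acyltransferases, 0 of 7 of fatty acid oxidation and 0 of 3 of cutin assembly. Both measured acyltransferases, and the acyl-CoA synthetase LACS2, were lower at secretion than before it. DCR (LOC103854880), an acyltransferase needed for cutin in Arabidopsis, was listed at 69 in leaf, 871, 11 and 17 through the lateral stages and 1074, 8 and 5 through the median ones. Only the pre-secretory nectaries stood above leaf, and DCR was 72.7-fold and 119-fold lower at the lateral and median onsets. The gene matching GPAT8 (LOC103844663), which joins fatty acids to glycerol for cutin, was listed at 434 in leaf, 214, 13 and 115 through the lateral stages and 322, 30 and 127 through the median ones. LACS2 (LOC103868651), which activates fatty acids for cutin, was listed at 584 in leaf, 1456, 231 and 167 in lateral nectaries and 1815, 431 and 135 in median ones. DCR and LACS2 stayed low after secretion, whereas GPAT8 was 8.29-fold and 4.13-fold higher than at secretion.

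Export genes split. The 2 genes matching ABCG11, a transporter of cutin and wax precursors, were lower at both onsets by between 3.03-fold and 4.40-fold. ABCG12 (LOC103868565), which exports wax, was listed at 1531 in leaf, 1034, 2086 and 398 in lateral nectaries and 1836, 1977 and 727 in median ones, so that its lowest values came after secretion. The gene matching LTPG2 (LOC103844285), a lipid-transfer protein anchored to the membrane, was listed at 85 in leaf, 285, 12 and 36 in lateral nectaries and 673, 129 and 47 in median ones. The gene matching LTPG1 (LOC103835364) was 4.40-fold lower at the median onset and 1.14-fold lower at the lateral one.

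Shared steps of chain elongation and acyl activation had unlike courses. ACC1 (LOC103833578), which makes the malonyl-CoA used in elongation, was listed at 2615 in leaf, 2056, 7793 and 1833 in lateral nectaries and 4732, 11631 and 2885 in median ones, highest at secretion in both. The 2 genes matching the reductase KCR1 were within 2-fold at both onsets. The enoyl reductase ECR (LOC103841442) was 2.70-fold and 2.38-fold lower. LACS1 (LOC103866392), an acyl-CoA synthetase of wax synthesis, was 2.19-fold lower at the lateral onset and 1.25-fold higher at the median one, and LACS4 (LOC103861474) was 2.43-fold and 1.12-fold higher.

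The regulators of the list had unlike courses. SHN1 (LOC103842907), an ethylene-response-type factor that switches on cutin genes in Arabidopsis, was listed at 1 in leaf, 8666, 2885 and 113 through the lateral stages and 2841, 387 and 62 through the median ones. Every nectary value was above leaf, and the values stepped down 76.0-fold in lateral and 45.1-fold in median nectaries from the first stage to the last. The gene matching MYB16 (LOC103846421), a factor of epidermal cell shape and cuticle, went the other way, at 305 in leaf, 55, 127 and 1083 in lateral nectaries and 59, 121 and 1319 in median ones. The gene matching CER9 (LOC103842338), a ubiquitin ligase whose loss alters wax and cutin in Arabidopsis, was listed at 1009 in leaf and between 884 and 2401 in nectaries.

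**Figure D4:**
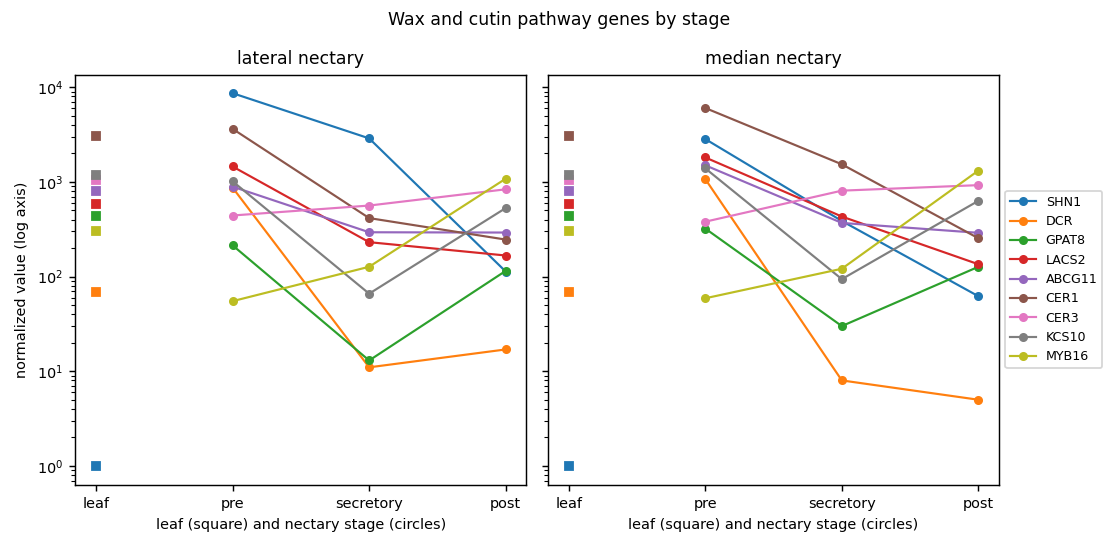
Normalized value (log axis) in leaf (squares) and through the stages of lateral and median nectaries (circles joined by lines) for 9 wax and cutin genes. SHN1, DCR, LACS2 and CER1 are highest before secretion in both types, GPAT8 and KCS10 dip at secretion, and CER3 and MYB16 are highest after it.

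Both WSD1-like genes, relatives of the wax ester synthase, were higher at both onsets. LOC103857833 was listed at 11 in leaf, 3, 60 and 257 through the lateral stages and 17, 9971 and 2498 through the median ones. It was 554-fold higher at the median onset and 15.2-fold higher at the lateral onset, and the secretory median value was 163-fold the lateral one. LOC103875156 was listed at 517 in leaf, 28, 246 and 140 in lateral nectaries and 81, 192 and 695 in median ones. With columns scaled to the same total, 1 of the 2 genes and not both passed 2-fold at the median onset. Probable fatty acyl-CoA reductase 4 (LOC103873613), whose Arabidopsis match makes fatty alcohols for suberin, was listed at 4 in leaf, 1, 21 and 142 in lateral nectaries and 4, 35 and 847 in median ones. It was higher at each step in both types, 170-fold in median nectaries from the first stage to the last.

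Lipid-transfer proteins, small secreted proteins that bind lipids, were lower at the lateral onset in 8 of 13 cases and higher in 1, beside 23.9% and 21.3% of all genes. They were lower at the median onset in 7 and higher in 1, beside 18.7% and 17.58%. Non-specific lipid-transfer protein D (LOC103867097) was listed at 13237 in leaf, 8221, 1000 and 9955 through the lateral stages and 5056, 326 and 4018 through the median ones. It matched 2 neighbouring Arabidopsis loci, LTP2 and LTP1, and LTP2 is linked there to the cuticle. Its secretory values were the lowest of each nectary type, 8.21-fold and 15.5-fold under the pre-secretory ones, and its post-secretory values lay near the pre-secretory ones. Non-specific lipid-transfer protein B (LOC103865675) dipped likewise, at 27 in leaf, 824, 122 and 2017 in lateral nectaries and 1325, 102 and 460 in median ones. Non-specific lipid-transfer protein A (LOC103865674), which matches the same LTP1 locus, was listed at 5560 in leaf, 7865, 2300 and 3428 in lateral nectaries and 13662, 3730 and 2586 in median ones. Protein A was at least 2-fold lower after secretion than before it in both types.

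Other lipid-transfer genes differed by stage in other ways. Non-specific lipid-transfer protein 6-like (LOC103859330) was listed at 780 in leaf, 4957, 292 and 127 through the lateral stages and 3781, 53 and 17 through the median ones. It stepped down throughout, 38.7-fold in lateral and 210-fold in median nectaries between the first and last stage. The gene named 3-like (LOC103857181), which matches the stress-responsive LTP4, was listed at 9798 in leaf, 92, 175 and 1898 in lateral nectaries and 127, 147 and 1107 in median ones. The gene named 2-like (LOC103832983) was listed at 1247 in leaf, 36, 24 and 939 in lateral nectaries and 18, 24 and 309 in median ones. For both, leaf was highest and only the post-secretory nectaries came within an order of magnitude of it.

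A pair of lipid-transfer genes separated the nectary types. Putative lipid-transfer protein DIR1 (LOC103856989), named for an Arabidopsis protein of long-distance defence signalling, was listed at 88 in leaf, 23223, 6294 and 1322 through the lateral stages and 3680, 343 and 2586 through the median ones. Lateral nectaries were 6.31-fold higher before secretion and 18.3-fold higher at secretion, and 1.96-fold lower after it. The gene named At2g13820 (LOC103843600) was listed at 1 in leaf, 0, 58 and 5 in lateral nectaries and 23, 1242 and 113 in median ones. It peaked at secretion in both types, 51.8-fold over the pre-secretory value in median nectaries, where the value was 21.1-fold the lateral one. The other gene named DIR1 (LOC103844982) was listed between 16 and 155 in all 7 groups and was lower in lateral than in median nectaries at each stage.

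GDSL esterase/lipases, a large family of secreted hydrolases and acyltransferases, were lower at the lateral onset in 12 of 24 cases and higher in 6, beside 23.9% and 21.3% of all genes. They were lower at the median onset in 13 and higher in 5, beside 18.7% and 17.58%, so that the higher counts lay near the share of all genes. The At4g30140-like gene (LOC103834690) matches the Arabidopsis gene CDEF1, a cutinase known from pollen and from roots that break through overlying tissue. It was listed at 64 in leaf, 136, 9061 and 27 through the lateral stages and 5015, 91183 and 7101 through the median ones. Secretory values were the highest in both nectary types, 66.1-fold and 18.2-fold over the pre-secretory ones. Median nectaries held more than lateral ones at each stage, by 36.6-fold, 10.1-fold and 254-fold. After secretion the lateral value was under that of leaf.

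Other GDSL genes also peaked at secretion or stood above leaf throughout. At1g54790 (LOC103848263) was listed at 13 in leaf, 2511, 4525 and 88 in lateral nectaries and 947, 1399 and 504 in median ones. At5g03610 (LOC103850505) was listed at 140 in leaf, 739, 1847 and 322 in lateral nectaries and 779, 1579 and 434 in median ones, with like values in both types. At2g30310-like (LOC103843994) was a median gene, at 2 in leaf, 5, 11 and 0 in lateral nectaries and 282, 756 and 101 in median ones. The 2 genes named At2g03980-like (LOC103839377 and LOC103853919) were listed at 1 and 0 in leaf and were highest in post-secretory median nectaries, at 180 and 61.

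A set of GDSL genes was listed almost exclusively before secretion among the nectary groups. At5g45670-like (LOC103839650) was listed at 12 in leaf, 857, 1 and 3 through the lateral stages and 1189, 0 and 2 through the median ones. At1g54000-like (LOC103832643) was listed at 3 in leaf, 2195, 8 and 3 in lateral nectaries and 242, 2 and 2 in median ones. The leaf values of both were 12 or less. At1g54020-like (LOC103871089) was listed at 1111 in leaf, 958, 1 and 1 in lateral nectaries and 280, 1 and 2 in median ones. EXL3-like (LOC103830631), of a group first described as extracellular lipases, was listed at 610 in leaf, 486, 6 and 6 in lateral nectaries and 419, 13 and 3 in median ones. At2g04570 (LOC103860308) followed at 156 in leaf, 1054, 60 and 121 in lateral nectaries and 1291, 34 and 132 in median ones. At1g54020-like and EXL3-like thus stood high in leaf as well as before secretion, and At2g04570 kept low but readable values in the later stages.

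Positions in Arabidopsis bring some of these together. The matches of At1g54000-like and At1g54020-like lie on chromosome 1 from 20158854 to 20160747 and from 20161805 to 20162923, and that of the 2 genes named inactive GDSL esterase/lipase-like protein 25 (LOC103832639 and LOC103871088) from 20167685 to 20169094. The table names no build for these spans and does not resolve exons and untranslated regions. The latter 2 genes were listed at 450 and 1088 in leaf, and in nectaries their highest values, 1361 and 670, were lateral and pre-secretory. All 4 genes of this stretch were lower at the lateral onset, from 3.57-fold to 480-fold, and all 4 had higher pre-secretory values in lateral than in median nectaries, from 1.53-fold to 9.04-fold.

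Another neighbouring pair had its highest nectary values after secretion. At1g29660 (LOC103835266) and At1g29670 (LOC103835265) match Arabidopsis genes on chromosome 1 from 10371955 to 10373624 and from 10375639 to 10377717. At1g29670 was listed at 856 in leaf, 29, 26 and 873 in lateral nectaries and 65, 118 and 611 in median ones. At1g29660 was listed at 331 in leaf, 127, 21 and 624 in lateral nectaries and 197, 48 and 424 in median ones. Post-secretory values were near or above leaf for both, 32.4-fold and 28.4-fold over the lateral secretory ones.

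Among the leaf genes of the family, ESM1-like (LOC103870050) was listed at 14593 in leaf and between 10 and 48 in nectaries, 511-fold lower at secretion. It was 1 of 12 surface lipid genes at least 2-fold lower than leaf in every nectary group (21.1%, beside 6.95% of all genes), of which 6 were GDSL genes. A further 6 of the 57 were at least 2-fold higher than leaf in every nectary group (10.5%, beside 7.05%), among them At1g54790, At5g03610, lipid-transfer protein B and the DIR1 gene LOC103856989.

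**Figure D5:**
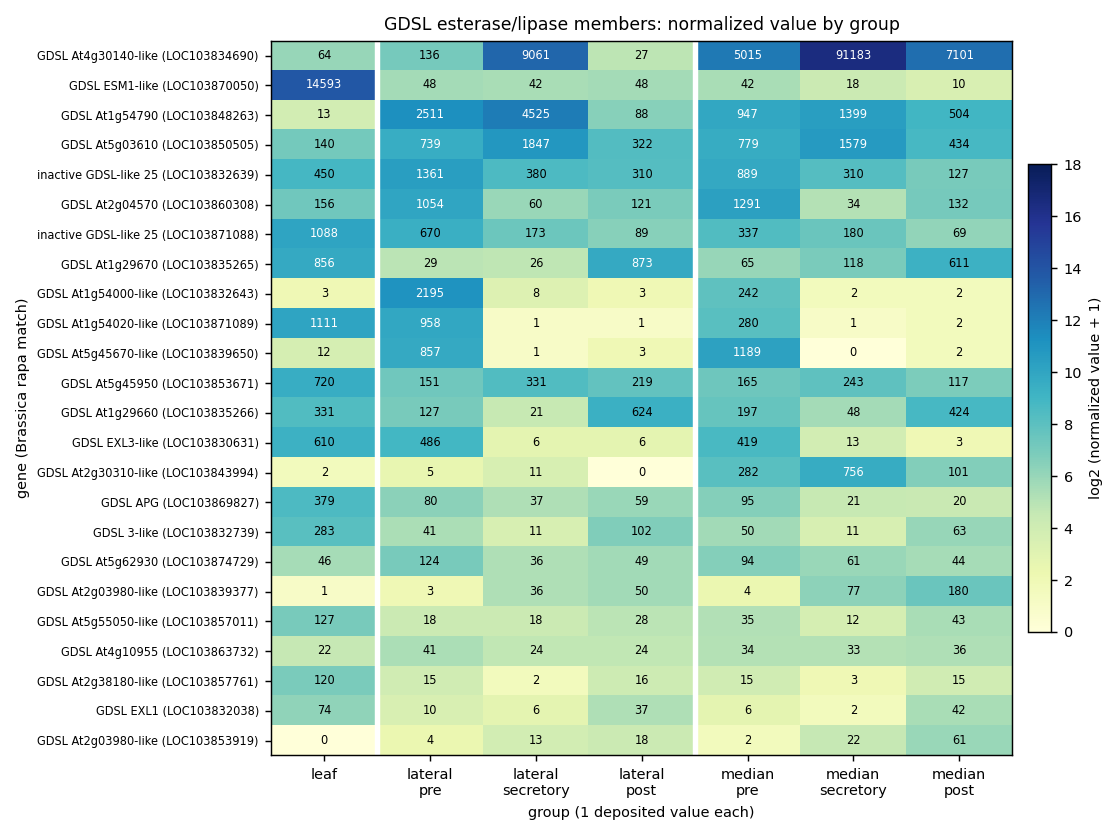
Normalized value (number in each cell) and its log2 after adding 1 (colour) for the 24 GDSL esterase/lipase genes, by group. White lines separate leaf, lateral and median nectaries. ESM1-like stands out in leaf at 14593, At4g30140-like in median secretory nectaries at 91183, and 3 genes are at 242 or more before secretion and at 8 or less later.

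Of the 7 acyltransferases of membrane and storage lipids, 3 were lower and 0 higher in secretory nectaries than in leaf, beside 25.9% and 26.3% of all genes. The gene named glycerol-3-phosphate acyltransferase 3-like (LOC103830019), which matches the endoplasmic reticulum enzyme GPAT9, was listed at 397 in leaf and between 337 and 672 in nectaries. The chloroplastic enzyme (LOC103833672) was listed at 728 in leaf, 263, 152 and 333 in lateral nectaries and 355, 110 and 248 in median ones. It was at least 2-fold lower than leaf in every nectary group, and 5.59-fold lower at secretion. The 1-acyl-sn-glycerol-3-phosphate acyltransferases 1 and 2 (LOC103861980 and LOC103830115), which add the second acyl chain, were listed between 157 and 423 and between 165 and 337 over all groups. At the lateral onset 1 of the 7 genes was higher and 0 lower, beside 21.3% and 23.9% of all genes, and at the median onset 0 were higher and 2 lower, beside 17.58% and 18.7%. Columns scaled to the same total gave 0 higher and 3 lower at each onset. Over all 13890 genes that scaling gave 1946 higher and 4997 lower at the lateral onset, and 1706 and 3795 at the median one. A direction for this group at the lateral onset thus depends on the scaling.

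At each stage taken alone, lateral and median nectaries differed by 2-fold or more in a minority of the 57 genes. Before secretion 4 were higher and 10 lower in lateral than in median nectaries, beside 7.97% and 4.45% of all genes. At secretion 11 were higher and 13 lower, beside 14.7% and 13.0%. A pseudocount of 10 left 7 and 7, and the share of all genes at that pseudocount is not given. After secretion 7 were higher and 14 lower, beside 12.8% and 9.45%. Lipid-transfer proteins at secretion were higher in lateral nectaries in 6 of 13 cases and lower in 2, among them protein D (3.06-fold), protein 6-like (5.43-fold) and At5g64080 (LOC103873827, 164 against 38). The 7 3-ketoacyl-CoA synthases had 0 higher and 3 lower at secretion.

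Markers of other tissues moved with the stages as well. Marker loci too were found by Arabidopsis match alone, so one not measured may still have a gene among the values. The summed value of the 4 pollen marker genes measured was 176 in leaf, 600, 3909 and 2984 through the lateral stages and 1123, 6110 and 9677 through the median ones, and their part in the higher values at secretion and after it was not tested. The pollen calcium pump ACA9 was listed at 250 or more in every nectary group. Of 12 tapetum loci 1 was measured, LAP5, whose value reached 251 in lateral nectaries at secretion and 31 in median ones and was 7 or less elsewhere. Of 4 epidermis loci 1 was measured, HDG1, at 202 in leaf and between 49 and 138 in nectaries. It was lowest before secretion in both nectary types, and the part of the epidermal cell share in the values of the 57 was not tested. The summed value of 4 genes of a handling-stress list was 1819 in leaf, 181, 3891 and 1979 through the lateral stages and 190, 1355 and 768 through the median ones. Most of it came from the genes matching HSP70-4, which like ZAT12 were highest at secretion in each nectary type. The touch gene TCH4 was not, at 39, 38 and 249 through the lateral stages and 64, 41 and 84 through the median ones. Handling and stage cannot be told apart. The summed value of 7 leaf mesophyll genes was 921180 in leaf and between 25628 and 51814 in nectaries. The measured vascular gene SUC2 was listed at 1297 in leaf and between 10 and 731 in nectaries, the guard cell gene KAT1 at 76 and between 27 and 716, and the petal and stamen gene AP3 at 1 and between 70 and 298. Of 4 carpel and ovule loci 0 were matched by a gene.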

How the data were processed

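Per the labels, TruSeq libraries were made from 3 replicates of each of 7 groups, 21 in all. The authors deposited 1 score per group and transcript, a normalized value rounded to whole numbers, in a table of 14398 Brassica rapa transcripts that Brassica juncea sequence matched. Per the file headers 6 columns are marked UQN, read here as upper-quartile normalized. No aligner, counting method or strand setting is named in the sources used here, nor the way 3 libraries became 1 value, and copies that share a match were not separated. Depth per library is unknown, so no interval was computed.

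For each gene (LOC identifier) the transcript with the highest mean of the 7 values was kept, 13904 genes, 25 rows without an identifier counting as genes. Of these, 13896 reached 1 in 3 or more groups and were compared, and 8 were dropped. The scale was log2 of the value plus 1, and the 2 nectary types were averaged on that scale against leaf. A 2-fold difference, an exact 2-fold included, was counted as a call. There were 8 comparisons in the design and 3 added after the data were seen (pre-secretory nectaries against leaf, and post-secretory against pre-secretory in each type). The error rate of the 2-fold calls on these data was not tested.

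The genes described and the lists were chosen with earlier results of these data known. Named genes were the 4 with the highest mean in each name group (all of groups of up to 6), the 4 largest differences each way per comparison if the higher group reached 50, and matches to the pathway list. Genes named beyond this, 3-ketoacyl-CoA synthases 3, 9 and 17 and the GDSL genes At2g04570, LOC103832639 and LOC103871088, were chosen after their values were seen. The 9 alternatives were pseudocounts of 10 and 0.1, 2 filters, 2 scalings, summed or separate transcripts and a 4-fold call. Python 3.11.15, numpy 2.4.6, pandas 2.3.3 and matplotlib 3.10.9 were used.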

Additional observations from a re-analysis of the deposited data

Results flagged for a closer look

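For 2 of the 57 surface lipid genes the end of secretion went past 2-fold in opposite directions in the 2 nectary types, beside 1.08% of all genes. The difference between the types was not tested, since each group had 1 value. The DIR1 gene LOC103856989 had a log2 difference of −2.25 in lateral nectaries and 2.91 in median ones. The WSD1-like gene LOC103857833 had 2.08 in lateral nectaries and −2.00 in median ones.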

How the results depend on the processing

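No paired analysis was possible because the table holds 1 value per group, and for the same reason no replicate could be left out. Over 9 alternatives, 253 of 288 recomputed counts of higher and lower genes lay within 1.5 times the reported count, and none of 553 recomputed differences of named genes that were past 2-fold changed direction (0), while 43 moved by over 1.5-fold. For the 57 surface lipid genes, a pseudocount of 10 gave 7 higher and 7 lower in lateral against median nectaries at secretion, and columns scaled to the same total gave 7 higher at the lateral onset. A 4-fold call gave 6 higher and 16 lower at the lateral onset, 6 lower at the lateral end, 6 higher at the median onset and 4 lower at the median end of secretion. For lateral against median nectaries it gave 2 higher and 4 lower before secretion, 4 and 5 at secretion, and 3 and 8 after it. For the 17 other pathway genes, a pseudocount of 10 gave 1 higher at the median onset and 0 higher in lateral against median nectaries after secretion. Quantile normalization gave 3 higher at the lateral onset and 2 lower in lateral against median nectaries after secretion, beside 2734 and 1514 of 13885 genes. Columns scaled to the same total gave 1 higher at the lateral onset, 7 at the lateral end, 0 at the median onset, 4 higher and 3 lower at the median end, and 2 higher in lateral against median nectaries after secretion. Over all 13890 genes, that scaling gave 1946 higher at the lateral onset, 5612 at the lateral end and 1706 at the median onset. It gave 3931 higher and 1026 lower at the median end, and 2132 higher in lateral against median nectaries after secretion. The 4-fold call gave 1 higher and 2 lower against leaf, 0 higher and 5 lower at the lateral onset, 0 higher at the median onset, 2 lower at the median end, 0 and 0 for lateral against median nectaries before secretion, 1 higher at secretion and 0 and 0 after it. The causes were not tested, beyond a 4-fold call counting fewer genes by construction. For the 4-fold call and the pseudocount of 10 the share of all genes is not given, so these counts cannot be set against it. Scaling to the same total moved the median of all genes to −0.54 and −0.39 at the lateral and median onsets and to 0.71 and 0.47 at the ends, since secretory columns had the largest totals. Low values limit what can be read: 4 of the 57 genes were listed at 0 in some group and 2 stayed under 50 everywhere.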
